A study of Homo sapiens with 9 samples.

Results

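Accessible chromatin was examined at 10 target genes of the transcription factor p53, which were CDKN1A, MDM2, BAX, BBC3, FAS, GADD45A, SESN1, TP53I3, RRM2B and ZMAT3, of 20136 protein-coding genes in all. They were a given list, and every peak that overlapped the gene body or the 20 kb on either side was taken, in GRCh37. The peaks of the 3 lists at these genes merged into 71 regions of 111260 in the genome. NTG had 54 peaks there, siINO80#1 had 45 and siINO80#2 had 33.

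The peaks come from ATAC-seq, in which a transposase cuts open DNA and leaves sequencing adapters behind, in the human hepatoma line HepG2. Over 72 hours with RNAimax, the cells were exposed to a control siRNA without a target (NTG), to siINO80#1 or to siINO80#2, each at 50 nM, the last pair directed at the ATPase INO80. Each of the 3 groups had 3 replicates (A to C) that share 1 peak list, so no value has a replicate error, no test was possible and no p-value is given. HepG2 is 1 cell line, and all groups were transfected in the same way.

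The lists held 69730 peaks for NTG, 69333 for siINO80#1 and 53113 for siINO80#2. Read numbers recovered from the peak values were 1.43 times NTG for siINO80#1 and 1.44 times for siINO80#2, on the assumption that the usual MACS2 formulas apply. Reads at a summit are given below without scaling to these numbers. A liver marker had a start-site peak in 8, 7 and 6 of 9 cases for NTG, siINO80#1 and siINO80#2. Markers of other cell types had one in 1, 2 and 1 of 7. Of all protein-coding genes, 60.5%, 60.1% and 53.4% had one in the same order. The lists hold no measure of the INO80 knockdown itself.

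p53 is a DNA-binding protein that is stabilised after DNA damage and binds a response element made of a pair of similar half-sites. The classical targets of p53 arrest the cell cycle, remove damaged cells by apoptosis, repair DNA or, as with MDM2, return p53 to a low level, and INO80 is a chromatin remodeler with known roles at DNA damage.

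The DNA around the response elements is shown first, because the results below refer to whether these elements lay inside peaks. The p53 response element was searched as a consensus of 20 bases with no spacer, with the core C and G of both half-sites intact and at most 2 mismatches in the rest. The consensus reads the same on both strands. There were 13 such elements in the 761.0 kb of windows, and 5 of them (38.5%) lay inside a region. Over the windows of all protein-coding genes the share was 2.76%, with 349 of 12656 elements inside a region. Regions covered 5.16% of the windows of the p53 target genes and 2.03% of those of all protein-coding genes. The genes were chosen as targets of p53, so the higher share of elements may come with that choice and was not tested. In the lines below, capitals mark the response element, each sequence is written 5′ to 3′ on the strand of the gene, and coordinates are GRCh37.
GADD45A intron 3, plus strand, chr1:68152428-68152507: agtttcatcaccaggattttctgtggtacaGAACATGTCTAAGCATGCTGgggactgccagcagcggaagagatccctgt
MDM2 intron 1, plus strand, chr12:69202673-69202752: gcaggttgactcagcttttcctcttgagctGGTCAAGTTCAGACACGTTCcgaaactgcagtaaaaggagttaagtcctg
FAS, downstream of the start, plus strand, chr10:90751036-90751115: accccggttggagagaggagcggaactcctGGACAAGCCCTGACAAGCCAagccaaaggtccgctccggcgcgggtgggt
CDKN1A far upstream, plus strand, chr6:36635005-36635084: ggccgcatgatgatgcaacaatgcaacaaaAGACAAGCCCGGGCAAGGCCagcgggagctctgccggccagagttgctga
CDKN1A near upstream, plus strand, chr6:36644221-36644250: gtcagGAACATGTCCCAACATGTTGagctc
ZMAT3 intron 2, minus strand, chr3:178764633-178764712: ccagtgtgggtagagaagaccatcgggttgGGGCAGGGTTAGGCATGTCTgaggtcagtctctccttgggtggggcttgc
ZMAT3 intron 1, minus strand, chr3:178787946-178788025: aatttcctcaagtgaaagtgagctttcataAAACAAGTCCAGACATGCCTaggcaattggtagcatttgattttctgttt

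**Figure D1:**
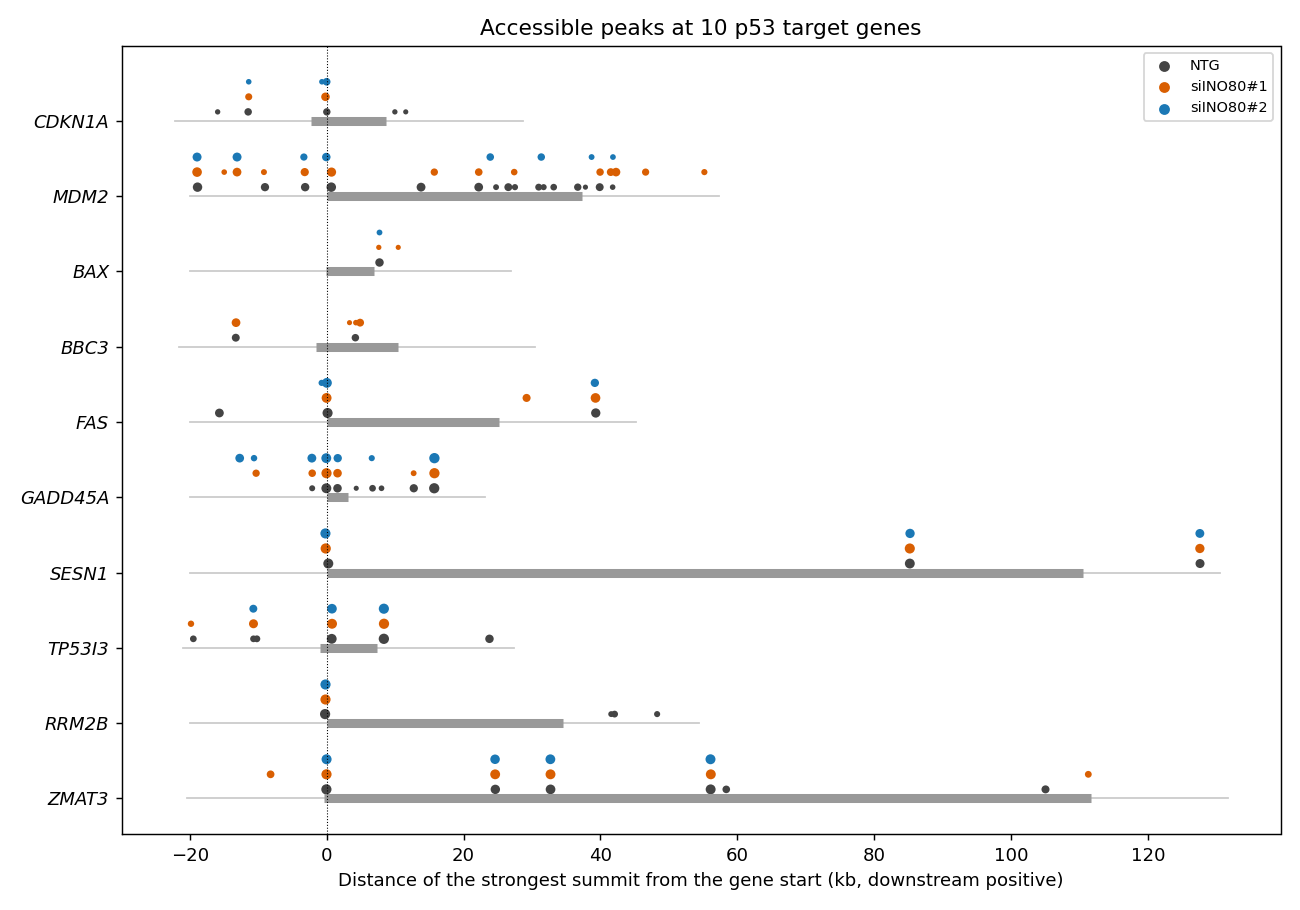
Peaks of each list (colours) at the 10 genes, plotted by the distance of the strongest summit from the gene start in kb; grey bars are gene bodies, thin lines are the 20 kb flanks, and dot size follows the rank of fold enrichment within the list. MDM2 and GADD45A carried the most regions, 23 and 11, whereas BAX carried 2.

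Start sites of the p53 target genes were accessible with all siRNAs at most genes. A start-site peak, with its summit within 1 kb of an annotated start of the gene, was present in the 3 lists, taken in the order NTG, siINO80#1 and siINO80#2, at 9, 9 and 8 of 10 genes. Over all protein-coding genes the shares were 60.5%, 60.1% and 53.4%. All 3 lists had one at 8 of 10 genes, where 50.8% of protein-coding genes did. The start-site peaks of NTG at these loci, those of neighbouring genes included, had a median fold-enrichment percentile of 87.7 within the list, against 67.9 for all NTG start-site peaks. Fold enrichment is the ratio of reads at the summit to the local background of the same list.

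At CDKN1A, the p21 inhibitor of cyclin-dependent kinases, the start-site peak ranked below the middle of the list in NTG and siINO80#2 and above it in siINO80#1. Its fold enrichment was 3.03 in NTG, 3.44 in siINO80#1 and 2.92 in siINO80#2, from 39, 58 and 45 reads at the summit. These fold enrichments stood at percentiles 35.4, 57.7 and 40.3 of their lists. Relative to the median of shared regions, described below, siINO80#1 was at 0.26 (log2) and siINO80#2 at 0.21, both above NTG. By reads at the summit over the genome background, on the same relative scale, they were at 0.28 and 0.14. In siINO80#2 a second, weaker peak (2.30) stood at -709 bp from the start, where siINO80#1 had a side summit (2.85, -724 bp) within its single peak.

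GADD45A, which acts in growth arrest and DNA repair, had a strong start-site peak. Its fold enrichment was 6.81 in NTG, 8.34 in siINO80#1 and 5.90 in siINO80#2. Relative to the median of shared regions, described below, siINO80#1 was above NTG (0.37 on the log2 scale) and siINO80#2 was close to it (0.06). By fold enrichment the lower raw value of siINO80#2 was thus no larger than the shift of its list. By reads at the summit over the genome background, on the same relative scale, siINO80#1 was at 0.18 and siINO80#2 at -0.36.

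MDM2, the ubiquitin ligase that degrades p53, is known to have an upstream promoter and a p53-responsive promoter in its first intron, and 1 peak spanned both in every list. The fold enrichment was 5.21 in NTG, 4.32 in siINO80#1 and 3.39 in siINO80#2, from 59, 58 and 39 reads. The strongest summit lay in intron 1 in NTG (660 bp downstream) and in siINO80#1 (694 bp downstream), and near the upstream start in siINO80#2 (-70 bp). The intronic side of the siINO80#2 peak kept weaker summits, with 3.05 at 516 bp and 2.98 at 638 bp, so the order of the summits rested on 39 against 35 and 34 reads.

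Among the apoptosis genes, FAS, a death receptor, had a strong start-site peak, with 7.76 in NTG, 6.26 in siINO80#1 and 5.94 in siINO80#2. BAX, which permeabilises the mitochondrial outer membrane, had no start-site peak in any list. BBC3 encodes PUMA, a BH3-only activator of apoptosis, and its start-site peaks stood at internal starts only. A peak 4180 bp downstream of the main start had 3.08 in NTG, and the same region had 2.30 in siINO80#1. siINO80#1 alone had further peaks, 4871 bp downstream (2.98) and 3324 bp downstream (1.95), whereas siINO80#2 had no peak at BBC3 or in its flanks. A missing peak means that none was called in that list, not that the DNA was closed.

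The DNA supply and stress genes had strong start-site peaks in all lists. RRM2B, the p53-inducible small subunit of ribonucleotide reductase, had 8.86 in NTG, 8.22 in siINO80#1 and 7.76 in siINO80#2. ZMAT3, a zinc-finger RNA-binding protein, had 9.05, 8.44 and 6.63 in the same order. TP53I3, a quinone oxidoreductase-like enzyme, had 6.51, 6.53 and 5.20. These 3 genes stood between percentiles 82.7 and 96.0 of their lists.

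SESN1 encodes a sestrin, which restrains mTORC1, and was accessible at both its long start and an internal start. The long start had 7.26 in NTG, 9.11 in siINO80#1 and 7.29 in siINO80#2. The internal start, about 85207 bp downstream, had 6.60, 7.63 and 4.42. By raw value siINO80#2 was thus near NTG at the long start and below it at the internal one. The summit there had 27 reads in siINO80#2 against 35 in NTG, or 5.06 against 9.17 times the genome background of each list. Relative to the median of shared regions, siINO80#2 was at 0.27 (log2) at the long start and -0.31 at the internal one.

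**Figure D2:**
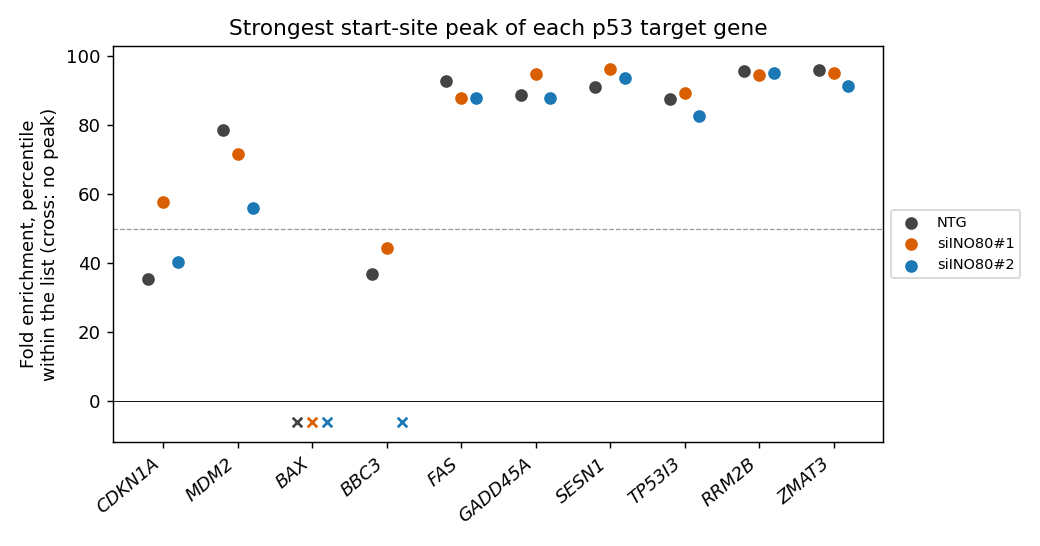
Percentile of fold enrichment within its list for the strongest start-site peak of each gene, in NTG, siINO80#1 and siINO80#2; a cross means no peak, and the dashed line is the middle of the list. BAX had no start-site peak, BBC3 had none in siINO80#2, and FAS, GADD45A, SESN1, TP53I3, RRM2B and ZMAT3 stood at percentile 82.7 or above in every list.

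The response elements did not share 1 relation to the peaks. In GADD45A the element in intron 3, with 1 mismatch, lay 16, 13 and 16 bases from the strongest summit of NTG, siINO80#1 and siINO80#2. The peak there had fold enrichments of 3.71, 3.51 and 3.30 and was the most closely centred on an element of the 5. In MDM2 the element lay 755 bp downstream of the start, inside the peak of every list, and 95 and 61 bases from the strongest summits of NTG and siINO80#1. In siINO80#2 it was 825 bases from the strongest summit, and a weaker summit (2.79) stood 709 bp downstream of the start. In FAS the element lay 661 bp downstream, inside the start-site peak in every list and 545 to 688 bases from the strongest summits, with weaker summits beside it. These stood 701 bp downstream in NTG (4.45), 718 and 608 bp in siINO80#1 (4.56 and 3.82) and 675 bp in siINO80#2 (3.74).

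At CDKN1A the far upstream element (1 mismatch) lay in a region present in all lists, whose fold enrichment was 3.09 in NTG, 2.68 in siINO80#1 and 2.30 in siINO80#2. The element was wholly inside the siINO80#1 peak only, and the other lists' peaks reached it in part. In ZMAT3 the intron 2 element lay inside the peaks of NTG and siINO80#2, and 92 bp from that of siINO80#1. The region held peaks of 4.98, 6.17 and 4.81.

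Other elements lay outside every peak, including the closest match to the consensus. The ZMAT3 intron 1 element, the only one with no mismatch, was 887, 1018 and 1040 bp from the nearest peak of NTG, siINO80#1 and siINO80#2. The CDKN1A element near the start (-2256 bp) was 1905, 1378 and 1477 bp away. It is upstream of the canonical start only, since it overlapped the annotated beginning of the CDKN1A gene body. The RRM2B element in intron 1 (1 mismatch, 2112 bp downstream) was 1834, 1686 and 1794 bp away. The other elements outside peaks were 1 at BAX, 1 at BBC3 and 3 more at ZMAT3, all with 2 mismatches.

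**Figure D3:**
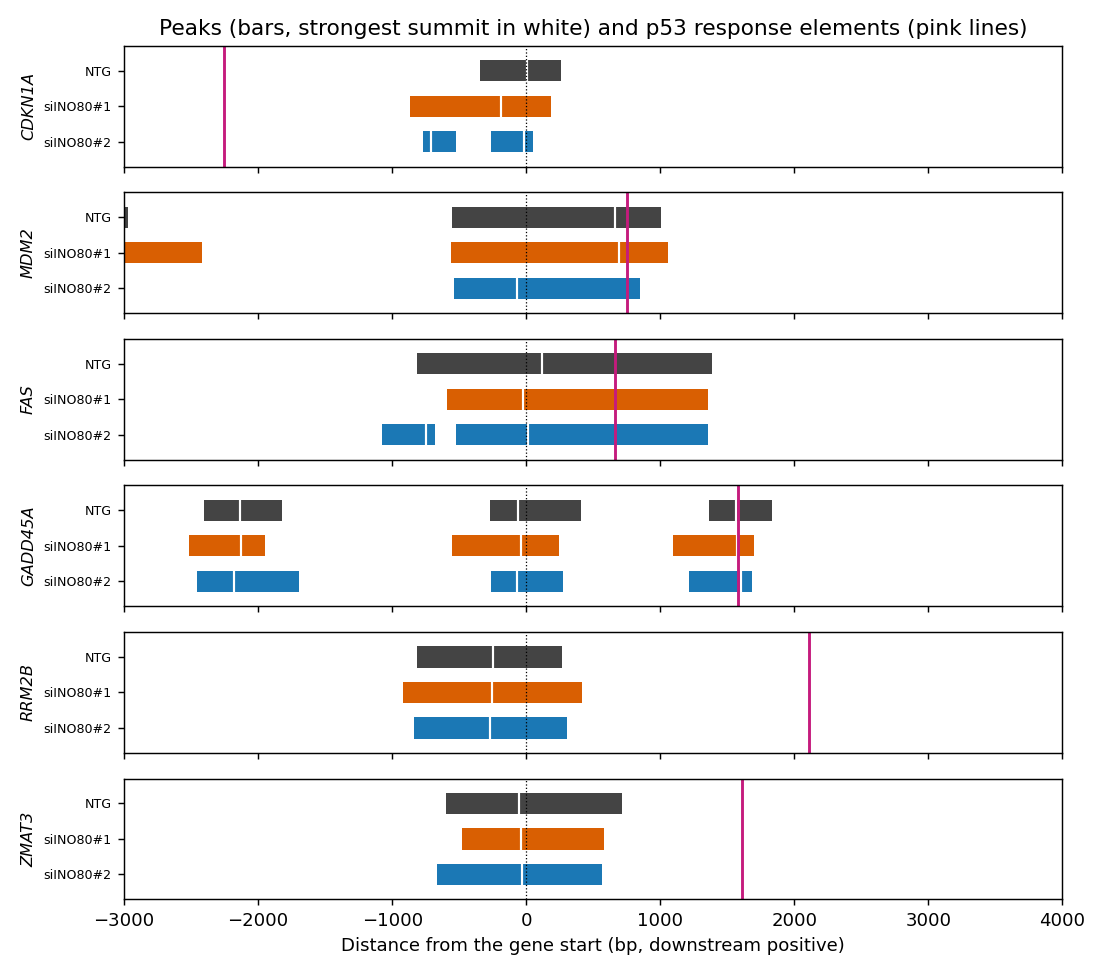
Peaks of each list (bars, strongest summit in white) and p53 response elements (pink lines) by distance from the gene start in bp, for 6 genes; the window does not reach the far upstream CDKN1A element or the intron 2 element of ZMAT3. The GADD45A element lies within 16 bases of the summits, those of MDM2 and FAS lie inside the start-site peaks, and those of CDKN1A, RRM2B and ZMAT3 lie outside all peaks.

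Away from start sites the strongest region was 15731 bp downstream of the GADD45A start. Its fold enrichment was 9.68 in NTG, 9.56 in siINO80#1 and 10.3 in siINO80#2, above that of the GADD45A start site in all 3 lists. A closer region at -2179 bp had 2.60, 2.85 and 3.77, the highest in siINO80#2. ZMAT3 had 3 intronic regions in all lists, of which the strongest, 56080 bp downstream, had 6.85, 6.50 and 6.31. At TP53I3 the strongest region of the window, 8342 bp downstream, was the start site of the neighbouring gene FAM228B, with 10.9, 9.57 and 7.65.

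Other members had weaker distal regions. At SESN1 a region 127601 bp downstream, within the neighbouring gene ARMC2, had 4.31, 4.50 and 3.80 in NTG, siINO80#1 and siINO80#2. At FAS a region 39275 bp downstream had 4.77, 5.48 and 3.29. At BAX the only region in all lists, 7635 bp downstream, had 3.60, 2.12 and 2.37, so NTG was the highest. At RRM2B the only distal peaks were 3 of NTG, between 2.57 and 2.83 with 12 or 13 reads. At TP53I3 the strongest distal peak of NTG had 3.63 (23778 bp downstream, NTG alone), within the neighbouring gene MFSD2B. That of both siINO80 lists was at -10711 bp, within FAM228B, with 3.99 and 3.05 against 2.77 in NTG.

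By position, peaks at the genes' own start sites numbered 10, 13 and 11 in NTG, siINO80#1 and siINO80#2, and those at start sites of neighbouring genes 4, 5 and 2. Intronic peaks numbered 12, 6 and 5, exonic peaks 2, 1 and 1, and peaks in the flanks 26, 20 and 14. Away from start sites this made 40, 27 and 20 peaks, where the whole lists held 51940, 51928 and 38475, and siINO80#2 was the shortest list. With the lists cut to equal size by fold enrichment, the peaks of all positions at these genes numbered 37, 35 and 33. Of these, 10, 11 and 11 were at the genes' own start sites. With equal sizes by −log10 q they numbered 42, 36 and 33, of which 10, 12 and 11 were at own start sites. With a −log10 q of at least 5, own start sites had 10, 10 and 9 peaks. With 2.5 kb to the start they had 16, 15 and 13, so the order of the lists at own start sites changed with the settings.

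MDM2 had the densest set of regions of the 10 genes. Its 23 regions gave 2.97 per 10 kb of window, rank 3 among 20136 protein-coding genes, and GADD45A had 2.55 per 10 kb, rank 18, where the median gene had 0.413. The strongest MDM2 region away from start sites in every list was that at -18956 bp, with 5.08, 5.23 and 3.90, within the neighbouring gene SLC35E3. The MDM2 regions from 37802 bp downstream onward lay within the neighbouring gene CPM. These densities count regions with a peak in any list. Of the 23 regions 4 were in all 3 lists, and 7, 4 and 2 were in NTG, siINO80#1 or siINO80#2 alone. The strongest of those in NTG alone, in intron 5 and 13778 bp downstream, had 4.04 with 21 reads. It was also the strongest NTG-alone region of the 10 genes. It was followed by a region at FAS (-15694 bp, 3.94, 18 reads), within the neighbouring gene STAMBPL1.

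A single region had a peak in the siINO80#1 and siINO80#2 lists but none in NTG, 1.41% of the 71 regions against 5.19% of all regions. The count depended on the settings, with 4 at equal list sizes by fold enrichment, 2 at equal sizes by −log10 q, with 50 kb flanks or with merging within 500 bp, and 0 with 5 kb flanks. The region lay at -13113 bp from MDM2, with 3.69 in siINO80#1 and 3.89 in siINO80#2. It and the GADD45A region 15731 bp downstream are printed here because both held an AP-1 motif near the summit. The motif was searched as TGACTCA or TGAGTCA on both strands within 100 bases of the strongest summit, and capitals mark it.
MDM2 upstream, plus strand, chr12:69188798-69188864: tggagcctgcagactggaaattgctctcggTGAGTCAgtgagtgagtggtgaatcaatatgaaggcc
GADD45A downstream, plus strand, chr1:68166559-68166625: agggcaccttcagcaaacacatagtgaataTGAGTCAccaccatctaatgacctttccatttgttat

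AP-1 is a dimer of FOS and JUN proteins that binds many enhancers. The motif was present in 6 of 71 regions (8.45%, 95% Wilson interval 3.93 to 17.2), against 11.9% of all regions. Over the whole length of the regions it was present in 13 (18.3%), against 16.3%, so the order of the shares turned with the window, and the motif is no result about these genes. Of the 6, 5 were in all 3 lists, where 16.8% of such regions had it, and the other was the MDM2 region of both siINO80 lists, where 32.1% did. The remaining 4 were the MDM2 start site, the MDM2 region at -18956 bp, GADD45A intron 3 and the SESN1 region 127601 bp downstream. The p53 response element was within 100 bases of the strongest summit in 2 of 71 regions (2.82%, 0.776 to 9.70), GADD45A intron 3 and the far upstream CDKN1A region, against 0.252% of all regions. With at most 1 mismatch the same 2 regions had it, against 0.0593%. With at most 3 mismatches the count was also 2, against 1.01%, which the interval (0.776 to 9.70) held. Over the whole length 5 regions had it with at most 2 mismatches (7.04%, 3.05 to 15.4), against 0.491%. Since the genes were chosen as targets of p53, shares above those of all regions may come with that choice. These matches are descriptions of the letters and not bound sites.

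Sorted by which siRNAs gave a peak, the regions of the p53 target genes took shares near those of the genome. There were 24 in all 3 lists (33.8%, 23.9 to 45.4), against 26.8% of all regions. NTG alone had 21 (29.6%, 20.2 to 41.0), against 24.4%. siINO80#1 alone had 12 (16.9%, 9.94 to 27.3), against 21.6%, and siINO80#2 alone had 4 (5.63%, 2.21 to 13.6), against 11.7%. These are no result about the p53 target genes, since each interval, for counting error only, held the share of all regions. The same was true of NTG with siINO80#1 (7 regions, 9.86%, against 7.64%), NTG with siINO80#2 (2 regions, 2.82%, against 2.62%) and both siINO80 lists (1 region, 1.41%, against 5.19%).

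**Figure D4:**
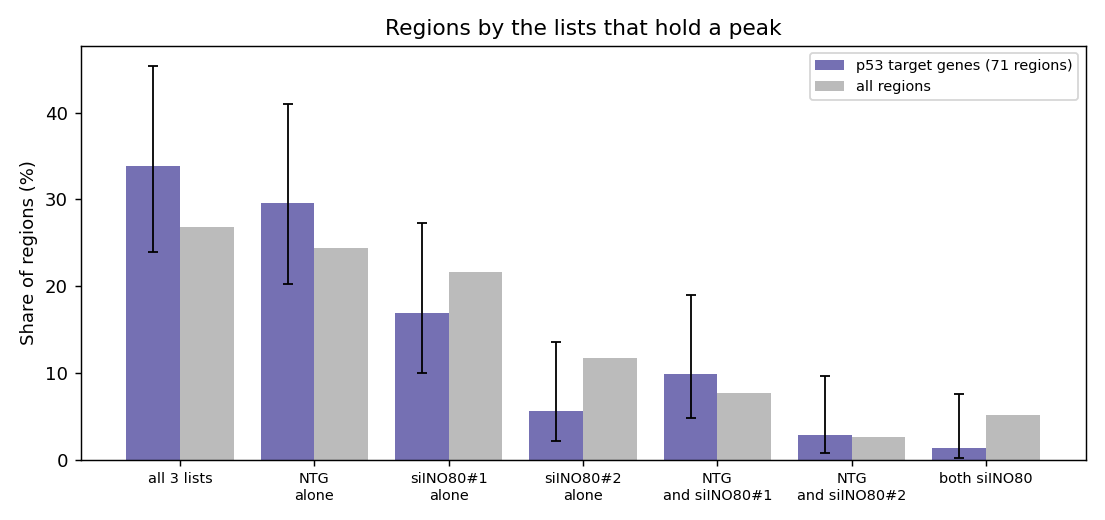
Share of regions (%) in each class of lists with a peak, for the 71 regions of the p53 target genes (purple, 95% Wilson intervals for counting error) and for all regions (grey). All 7 intervals hold the genome share.

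NTG peaks at the p53 target genes were found again with the INO80 siRNAs about as often as elsewhere. Of 54 NTG peaks, 31 (57.4%, 44.2 to 69.7) overlapped a siINO80#1 peak, against 56.5% of all NTG peaks, and 26 (48.1%, 35.4 to 61.1) overlapped a siINO80#2 peak, against 48.0%. Both shares use the same NTG list. In the other direction the shares were higher than elsewhere. Of 33 siINO80#2 peaks, 27 (81.8%, 65.6 to 91.4) overlapped an NTG peak, against 63.6% of all, and the peaks at these genes were also the stronger ones, with a median percentile of 61.7 against 49.2. Of 45 siINO80#1 peaks, 32 (71.1%, 56.6 to 82.3) overlapped an NTG peak, against 56.6%. Their median percentile was close to that of the whole siINO80#1 list. Among siINO80#1 peaks away from start sites, it was lower at these genes than over the list. A higher share thus did not always go with stronger peaks, and its cause was not tested. Away from start sites the siINO80#1 share was 70.4% (51.5 to 84.1), against 48.4%, and the siINO80#2 share was 75.0% (53.1 to 88.8), against 54.8%. At start sites they were 72.2% and 92.3%, against 80.8% and 86.9%. The intervals treat peaks as independent, although neighbouring peaks share a locus, and no test was made. NTG peaks at start sites, those of neighbouring genes included, were found again in 13 and 11 of 14 cases (79.8% and 70.2% over all start-site peaks), and peaks elsewhere in 18 and 15 of 40 (48.5% and 40.4%). Per gene, all 3 NTG peaks of SESN1 were found in both siINO80 lists, 5 of 16 at MDM2 were found in siINO80#2, and 1 of 4 at RRM2B was found in both. Regions of the p53 target genes in all lists were also the strong ones, with a median of percentile 85.1 in their best list, against 23.5 for those in NTG alone (82.3 and 29.8 over all regions).

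Strength was then set side by side in the 24 regions with a peak in every list, as the ratio of fold enrichment over NTG relative to the median of all such regions, which was -0.07 (log2) for siINO80#1 and -0.26 for siINO80#2. A region 1.5 times above the median was counted as higher and 1.5 times below it as lower. With siINO80#1, 2 regions were higher, against 7.38% of all shared regions. They were the MDM2 region 42271 bp downstream (1.52 times) and the TP53I3 region at -10711 bp (1.51 times). In the MDM2 region the strongest summits differed in place, at 42271 bp in siINO80#1 and 41781 bp in NTG. The BAX region was the only lower one (0.620 times), against 6.55%. With siINO80#2, 1 region was higher, against 8.33%, the GADD45A region at -2179 bp (1.74 times), and 0 were lower, against 7.39%. Counts of this size are near the background and no result about the genes. Start-site regions of these genes lay between -0.24 and 0.40 with siINO80#1 and between -0.36 and 0.27 with siINO80#2 on this log2 scale, the lowest in siINO80#2 being MDM2 (-0.36). Reads at the summit over the genome background were also used in place of fold enrichment. The MDM2 start site was then the only region past 1.5 times with siINO80#2, at -0.66 (1 lower, against 9.24%, and 0 higher, against 11.9%). The GADD45A region at -2179 bp was at 0.45. With siINO80#1, 1 was higher (TP53I3 at -10711 bp, 0.65, against 9.91%) and 1 lower (BAX, -0.78, against 8.43%). The MDM2 region 42271 bp downstream was at 0.13.

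**Figure D5:**
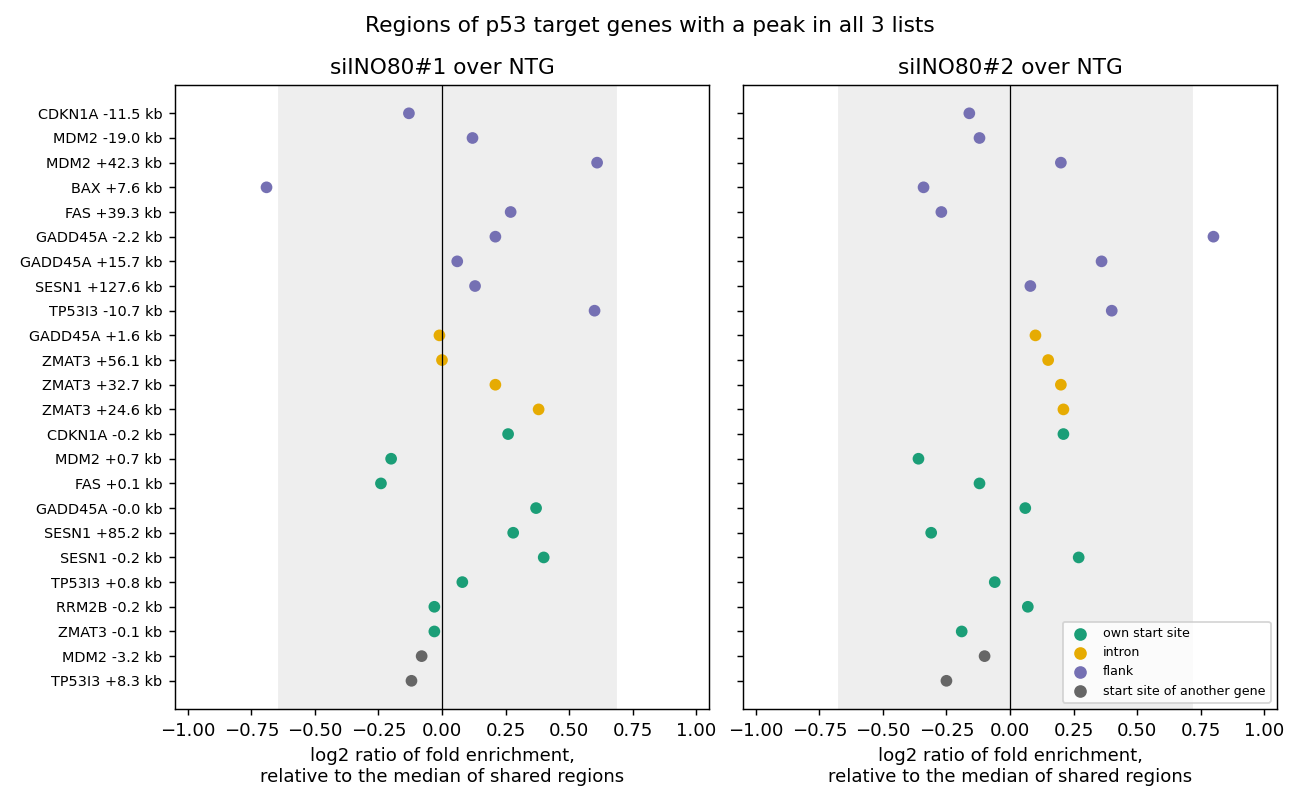
Log2 ratio of fold enrichment over NTG, relative to the median of all regions with a peak in every list, for the 24 such regions of the p53 target genes (one row each, distance from the gene start in kb); grey marks the middle 90% of all shared regions. Only the BAX region (siINO80#1) and the GADD45A region at -2179 bp (siINO80#2) lie outside the grey band.

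Most genes of the wider p53 pathway also had start-site peaks. Of 44 other pathway genes, start-site peaks were present at 40, 41 and 39 with NTG, siINO80#1 and siINO80#2, and 39 had one in all 3 lists (88.6%, against 50.8% of protein-coding genes). MDM4, a relative of MDM2 that inhibits p53, had 7.19, 7.08 and 6.80 in NTG, siINO80#1 and siINO80#2. Genes whose lists differed were SFN, an adaptor protein of cell-cycle arrest with a peak in siINO80#1 alone (2.15), and NINJ1, a cell-surface protein with peaks in NTG (3.37) and siINO80#1 (2.39). BID, TNFRSF10C and TSC2 had no start-site peak in any list.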

How the data were processed

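ATAC-seq of 9 HepG2 samples was used as 3 peak lists, 1 per siRNA, grouped by their titles. The submitters' processing notes name Trim Galore 0.4.1, Bowtie2, SAMtools, MACS2, deepTools 2.2.4 and hg19; how replicates were combined and whether reads were shifted for the transposase offset are not given in the sources used here. The deposited fold enrichment is a ratio over the local background of the same list, with no input library. The authors deposited p as its −log10 value, and q as a score that is likewise its −log10, with 1.30 as the lowest. Summits were deposited as positions.

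An interval with several summits was represented by its strongest. Overlap needed 1 bp. Starts, introns and gene bodies came from GENCODE lifted to GRCh37 and sequences from the GRCh37 genome. The start was that of the canonical transcript, or the gene start for FAS. A region took 1 of the positions start site, exon, intron or flank from its strongest summit. Reads at the summit were solved from fold enrichment and −log10 p, with an error of at most 0.00121 in −log10 p. Wilson intervals are 95%. Named regions were start-site regions, the strongest distal ones, those in both siINO80 lists or strongest in NTG alone, and those with a response element. The pathway list had 44 genes and the marker lists 9 and 8, of which PECAM1 was not matched in the annotation. The values of 1 pathway gene are not reported here. The members and lists were chosen with earlier results of these data known. Reading of reads, classes and motifs was tested on simulated data. Alternatives were a −log10 q of at least 5, equal list sizes, flanks of 5 and 50 kb, merging within 500 bp, an overlap of 50%, a start distance of 2.5 kb and other motif settings. Computation used scipy 1.17.1, matplotlib 3.10.9, pandas 2.3.3, pysam 0.24.0 and numpy 2.4.6 under Python 3.11.15.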

Additional observations from a re-analysis of the deposited data

Results flagged for a closer look

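At 3 start-site regions the siRNAs moved to opposite sides of the shared-region median relative to NTG, on the log2 scale of fold enrichment. SESN1 at its internal start had 0.28 with siINO80#1 and -0.31 with siINO80#2. TP53I3 had 0.08 and -0.06, and RRM2B had -0.03 and 0.07. By reads at the summit over the genome background, SESN1 had 0.10 and -0.44, TP53I3 0.0 and -0.15, and RRM2B -0.14 and -0.11. RRM2B was then on the same side with both siRNAs, and of these regions only SESN1 stayed clearly on opposite sides. The differences were not tested, since each siRNA had 1 list, and the values of TP53I3 and RRM2B are small.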

How the results depend on the processing

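No paired analysis was possible because 1 list stands for the 3 replicates of a siRNA, and for the same reason no replicate was left out. Of 119 values recomputed, 85 stayed within 1.5 times (or within the 95% interval of a share) and 34 moved. The number of genes with a start-site peak did not change, at 9, 9 and 8, under the stricter −log10 q, equal list sizes or 2.5 kb to the start.

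With a −log10 q of at least 5, peaks fell to 29, 25 and 20 in NTG, siINO80#1 and siINO80#2 and regions to 35, of which 9, 4 and 1 were in NTG, siINO80#1 or siINO80#2 alone, 2 in NTG with siINO80#1 and 0 in NTG with siINO80#2, fewer by construction, and 62.1% of NTG peaks were found in siINO80#2. Equal list sizes by fold enrichment gave 13 regions in NTG alone, 3 in NTG with siINO80#1, 1 in NTG with siINO80#2 and 4 in both siINO80 lists, and by −log10 q 13 and 6 in NTG or siINO80#1 alone and 2 in both. Flanks of 5 kb gave 29 siINO80#1 peaks and 45 regions, with 13, 6 and 2 in NTG, siINO80#1 and siINO80#2 alone, 4 in NTG with siINO80#1 and 0 in both siINO80 lists. Flanks of 50 kb gave 10 in siINO80#2 alone and 2 in both siINO80 lists, and merging within 500 bp gave 2 and 2. A start distance of 2.5 kb gave 16, 15 and 13 own start-site peaks in NTG, siINO80#1 and siINO80#2. Whole regions held the p53 element in 5 cases (7.04%, against 0.491% of all regions) and AP-1 in 13 (18.3%, against 16.3%), which turned the order of the AP-1 shares. Counted by reads over the genome background, which was added once the data had been seen, shared regions past 1.5 times numbered 1 higher with siINO80#1, and 0 higher and 1 lower with siINO80#2. Where no construction is named, the cause was not tested. Distal peaks with as few as 12 reads at the summit limit what the distal counts can show.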
